A study of Mus musculus with 16 samples.

Results

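Mouse chromosome 8 was taken as one region and described through every gene that the tables placed on it, 3344 of the 71428 gene identifiers of both tables together. The histone table listed 1975 of its 43984 genes there, the CpG methylation table listed 2535 of its 55471 genes there, and 1166 identifiers stood in both. The chromosome was chosen by the H3K4me3 and H3K36me3 values of line PTC11, both raised on it, so the PTC11 histone values that follow are a description and were not tested. CpG methylation and the presence or absence of a value were not used in that choice.

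H3K4me3 is a histone mark that sits at the start of active genes, and H3K36me3 is laid down over gene bodies as RNA polymerase passes through them. Methylation of CpG dinucleotides at a promoter usually goes with a silent gene, while promoters dense in CpG mostly stay free of it. Chromosome 8 carries genes for proteins of the pluripotent state such as Zfp42 (Rex1), the insulator protein gene Ctcf, the cluster of antimicrobial defensin genes, the carboxylesterase and metallothionein clusters, and the array of 5S ribosomal RNA genes. Cultured mouse pluripotent stem cells are known for recurrent gain of chromosome 8. DNA copy number was not analysed here.

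The values came from 4 lines of induced pluripotent stem cells (iPSCs), PTC11 and PTC12 from kidney proximal tubule cells (PTC) and TTF1 and TTF4 from tail tip fibroblasts (TTF), in a study of whether iPSCs keep an epigenetic memory of their cell of origin. All 4 came from mice heterozygous for SLC34a1-GCE, tdTomato, rtTAROSA (neo-in) and OKMS-250, the last giving doxycycline-inducible Oct4, Klf4, c-Myc and Sox2. Cre recombinase cut out the loxP-flanked neo cassettes before reprogramming. The mice were littermates fed tamoxifen from 6 weeks of age, and tissue was taken at 8 to 10 weeks. PTC were sorted as GFP and tdTomato double positive cells in which Cre was driven by the SLC34a1 promoter, whereas TTF received Cre from a non-integrating episomal plasmid by electroporation. The deposited design text calls the mice triple transgenic and the methods call them quadruple transgenic. Each line was 1 clone that had become independent of doxycycline, and each line had 1 library per assay in the tables, although the methods describe chromatin immunoprecipitation in duplicate. Any p-value therefore measures only the spread between these clones. The methods give a nominal read number for the ChIP samples. Reads per gene, the depth of each library and CpG coverage were unknown, so no counting error could be given. The lines were measured in bulk, so a mark changed in some cells and a smaller change in all cells cannot be told apart. Of the 8 pluripotency genes checked over the whole genome, 7 had H3K4me3 in PTC11, PTC12 and TTF1 and 5 had it in TTF4, which lacked it at Zfp42 and Dppa5a. Esrrb had it in no line. Of 5 fibroblast markers 1 had H3K4me3 in PTC11 and 4 had it in each other line, and of 5 proximal tubule markers 1 to 2 had it in each line. The lines also differed in presence over the whole genome. Of 43984 listed genes, PTC11 had an H3K4me3 value at 15114 and TTF4 at 15368. PTC12 had one at 19990 and TTF1 at 19448. With 5 genes per set, differences between lines in the marker counts were not tested. The part of the markers in the values of PTC11 was not tested either. In TTF4 median methylation over chromosome 8 genes was also the highest of the 4 lines, at 0.755 against 0.345 in PTC11, so the values are given for PTC11 against each other line as well as against their median.

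The first 250 bases upstream of the start of 4 members are shown because they span the range of promoters on the chromosome, from dense in CpG and unmethylated to poor in CpG and methylated. Sequences are from RefSeq on GRCm38.p6 (mm10), 5′ to 3′ on the strand of the gene, and capitals mark each CpG, found as the letters CG, which read the same on both strands. Ctcf (chr8:105636288-105636537, plus strand) has 40 of them, Palm3 (chr8:84021224-84021473, plus strand) has 12, Zfp42 (chr8:43307010-43307259, minus strand) has 9 and Defb38 (chr8:19026569-19026818, minus strand) has 1.
Ctcf: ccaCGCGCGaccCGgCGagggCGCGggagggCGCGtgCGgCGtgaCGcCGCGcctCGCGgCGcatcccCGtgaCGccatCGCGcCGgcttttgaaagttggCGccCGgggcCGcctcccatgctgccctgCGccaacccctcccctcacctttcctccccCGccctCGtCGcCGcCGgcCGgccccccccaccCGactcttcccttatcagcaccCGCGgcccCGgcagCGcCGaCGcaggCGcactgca
Palm3: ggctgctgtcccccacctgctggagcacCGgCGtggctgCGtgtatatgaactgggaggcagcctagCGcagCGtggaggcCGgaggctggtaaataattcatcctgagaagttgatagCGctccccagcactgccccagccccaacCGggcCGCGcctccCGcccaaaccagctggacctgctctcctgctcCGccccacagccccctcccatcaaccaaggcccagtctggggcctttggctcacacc
Zfp42: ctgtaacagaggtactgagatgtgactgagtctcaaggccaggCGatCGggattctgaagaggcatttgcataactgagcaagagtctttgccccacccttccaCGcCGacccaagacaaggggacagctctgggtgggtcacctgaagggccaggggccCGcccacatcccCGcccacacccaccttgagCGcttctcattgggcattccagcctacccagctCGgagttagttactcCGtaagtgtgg
Defb38: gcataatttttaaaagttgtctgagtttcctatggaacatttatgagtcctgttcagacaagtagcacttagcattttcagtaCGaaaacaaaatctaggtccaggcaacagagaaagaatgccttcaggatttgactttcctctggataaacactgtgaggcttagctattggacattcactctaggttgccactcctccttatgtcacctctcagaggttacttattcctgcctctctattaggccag
A window of this kind held a median of 6 CpG in the 1442 RefSeq promoters of chromosome 8 and also 6 in the 29954 of the other autosomes. At least 10 CpG stood in 40.1% of the former and 38.2% of the latter.

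The methylation of these 4 promoters, averaged by the authors over windows within 1 kb of the start, followed that range in part. At Ctcf PTC11 had a fraction of 0.00858, PTC12 had 0.00600, TTF1 had 0.0288 and TTF4 had 0.0101, so all 4 lines were close to unmethylated. At Defb38 it was 0.625, 0.600, 0.453 and 0.877 in the same order. At Palm3 it was 0.0958, 0.145, 0.277 and 0.918. At Zfp42 it was 0.0284, 0.209, 0.100 and 0.803. TTF4 thus stood far above the other lines at Palm3 and Zfp42, and at Ctcf no line passed 0.0288.

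H3K4me3 over chromosome 8 was higher in PTC11 than in any of the other lines once the level of the rest of the genome was set aside. Among the 749 genes with a value above 0 in all 4 lines the median was 4.16 RPKM (reads normalised to length and library size, after subtraction of input) for PTC11, with 5.51 for PTC12, 5.90 for TTF1 and 3.65 for TTF4. These medians also carry the overall scale of each library. For each gene the log2 ratio of a line to the median of the 4 lines was therefore taken, and the median ratio over the 18 other autosomes was subtracted from that over chromosome 8. This relative value was 0.10 for PTC11, which is 1.07-fold and the highest of the 19 autosomes, where the 18 others ran from -0.12 to 0.043. It stood at -0.024 for PTC12, -0.037 for TTF1 and -0.077 for TTF4, which put chromosome 8 in place 17, 18 and 19 of 19. In PTC11 the X chromosome had a larger value, 0.25. In TTF4 it was chromosome 10 that stood highest, at 0.21 for H3K4me3 and 0.20 for H3K36me3.

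H3K36me3 on chromosome 8 was likewise highest in PTC11 on this scale. PTC11 had a median of 1.82 RPKM over 896 chromosome 8 genes, PTC12 had 4.07, TTF1 had 1.24 and TTF4 had 4.14. The relative value was 0.081 in PTC11, 1.06-fold and again the highest of the 19 autosomes, with the others between -0.028 and 0.030. PTC12 had -0.057, TTF1 -0.045 and TTF4 -0.061.

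**Figure D1:**
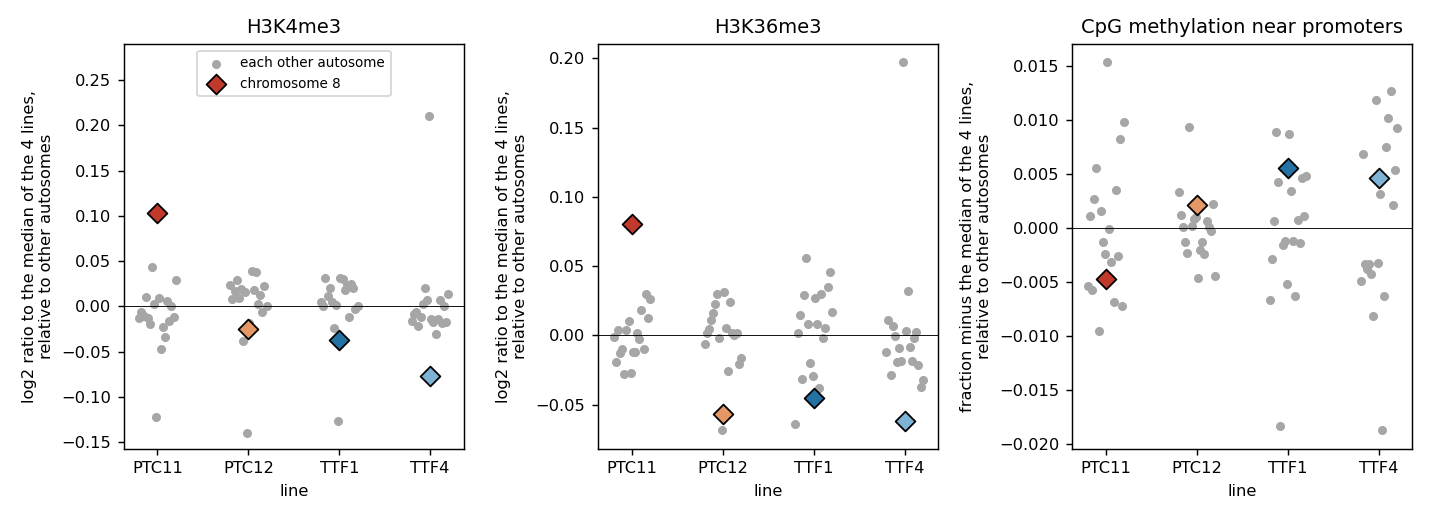
Relative value of each autosome in each line for H3K4me3 and H3K36me3 (log2 ratio to the median of the 4 lines, minus that of the other autosomes) and for CpG methylation (difference in fraction, treated alike). Diamonds are chromosome 8 and grey points are the 18 other autosomes; in PTC11 chromosome 8 lies above every other autosome for both histone marks, at 0.10 and 0.081, and within their range for methylation.

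Since the median of the 4 lines includes PTC11, a high PTC11 value lowers the relative values of the others by construction, and the lines were also compared in pairs. For H3K4me3 on chromosome 8 PTC11 was 1.10-fold above PTC12, 1.11-fold above TTF1 and 1.13-fold above TTF4, as medians over genes relative to the other autosomes. For H3K36me3 the ratios were 1.10, 1.10 and 1.11. Chromosome 8 ranked first among the 19 autosomes in all 6 of these pairs. The pairs are steadier than the median for this purpose, because with 1 line left out the median of 3 is often PTC11 itself. Without PTC12, TTF1 or TTF4 the relative value of PTC11 was 0.0072, 0.0032 and 0.13 for H3K4me3 and 0, 0.19 and 0 for H3K36me3. In the pairs without PTC11 the log2 ratio of chromosome 8 lay between -0.038 and 0.048. At the level of genes 69.2% of chromosome 8 genes had a higher H3K4me3 ratio than the other autosomes' median in PTC11 over PTC12, 67.4% over TTF1 and 75.4% over TTF4. For H3K36me3 these shares were 63.5%, 63.1% and 63.5%.

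The H3K4me3 difference ran along the whole chromosome, while that of H3K36me3 was near 0 in some bins. Neither came from 1 segment. In bins of 10 Mb the H3K4me3 relative value of PTC11 was above 0 in 13 of 13 bins, from 0.048 in the second bin to 0.14 in the sixth, which held 12 genes. Of the bins with at least 20 genes 12 of 12 were above 0, against 45.6% of 193 such bins on the other autosomes. For H3K36me3 12 of 13 bins were above 0, and the second bin, at -0.0020, was the exception. Bin 3 (0.015) and bin 12 (0.014) were close to 0. In bins 2, 3, 4 and 12 a line other than PTC11 had the highest H3K36me3 value. In bin 4 TTF1 was also above PTC11 for H3K4me3, at 0.074 against 0.055. Among bins with at least 20 genes elsewhere 116 of 223 were above 0. The other lines were above 0 in 4 (PTC12), 4 (TTF1) and 1 (TTF4) of the 13 bins for H3K4me3, and in 2, 3 and 4 of them for H3K36me3. In consecutive blocks of 50 genes PTC11 was above 0 in 14 of 14 for H3K4me3 and in 15 of 17 for H3K36me3. The first gene by position with H3K4me3 in all lines, the insulin receptor gene Insr, had 3.10, 4.30, 4.30 and 3.77 RPKM of it in PTC11, PTC12, TTF1 and TTF4. The last, the unnamed transcript XLOC_060244, had 2.94, 3.36, 3.72 and 2.55 RPKM, so that the gene at the distal end was above the other autosomes in PTC11 (0.18) and the gene at the proximal end was not (-0.10).

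**Figure D2:**
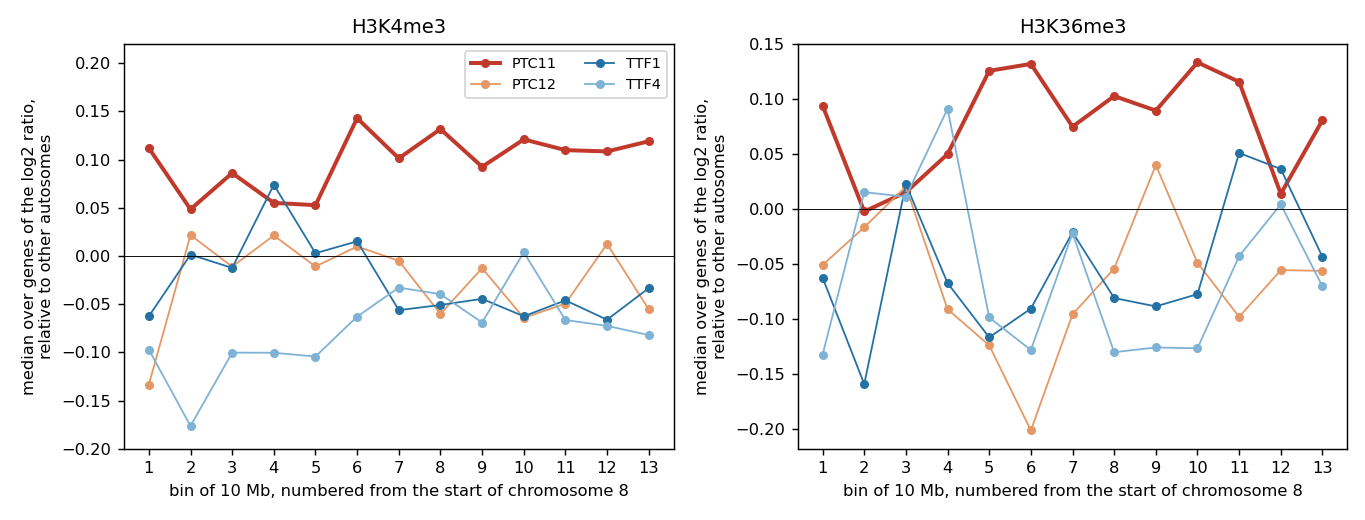
Relative value (log2 ratio to the median of the 4 lines, minus the median of the other autosomes) of H3K4me3 and H3K36me3 in successive 10 Mb bins of chromosome 8, numbered from its start, as the median over genes in a bin. Points joined by lines are the 4 lines; PTC11 stays above 0 in 13 of 13 bins for H3K4me3 and in 12 of 13 for H3K36me3.

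The number of genes with PTC11 on top was likewise shifted. For this count the median log2 level over the other autosomes was subtracted in each line. PTC11 then had the highest H3K4me3 of the 4 lines at 351 of 749 chromosome 8 genes (46.9%), beside 26.2% of all autosomal genes. For H3K36me3 it was highest at 314 of 896 genes (35.0%), beside 21.4% of all autosomal genes. PTC11 was the lowest line at 77 genes (10.3%, beside 26.5%) for H3K4me3 and at 93 genes (10.4%, beside 20.2%) for H3K36me3. TTF4 was the highest line at 94 chromosome 8 genes (12.6%, beside 23.1%) for H3K4me3. Most single genes differed by little. In PTC11 73 genes (9.75%) stood at least 1.25-fold above the median of the 4 lines for H3K4me3, beside 6.26% of all autosomal genes, and 153 genes (17.1%) did for H3K36me3, beside 12.7%. PTC11 was at least 1.25-fold below at 19 genes (2.54%, beside 9.35%) for H3K4me3 and at 37 genes (4.13%, beside 9.67%) for H3K36me3. All of these counts use the values that chose the chromosome and are read as a description.

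Both marks were measured in all 4 lines at 586 chromosome 8 genes. In PTC11 both were above the other autosomes' median at 270 of them (46.1%), against 23.8% of 9289 genes on the other autosomes. Both were highest in PTC11 at 105 genes (17.9%), against 4.66%. Gene by gene the PTC11 ratios of both marks were only weakly related, with a Spearman correlation across the 586 genes of 0.095 on chromosome 8 and 0.066 elsewhere. The genes share the same libraries and are not independent replicates. The PTC11 value was above 0 in each class of genes looked at. In PTC11 the relative H3K4me3 value was 0.068, 0.091 and 0.15 in the low, middle and high class of genes by level, when all genes were split into 3 classes of equal size, and it lay between 0.055 and 0.12 over such classes by number of CpG near the start, by GC content and by gene length. For H3K36me3 the values over all such classes lay between 0.064 and 0.12.

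**Figure D3:**
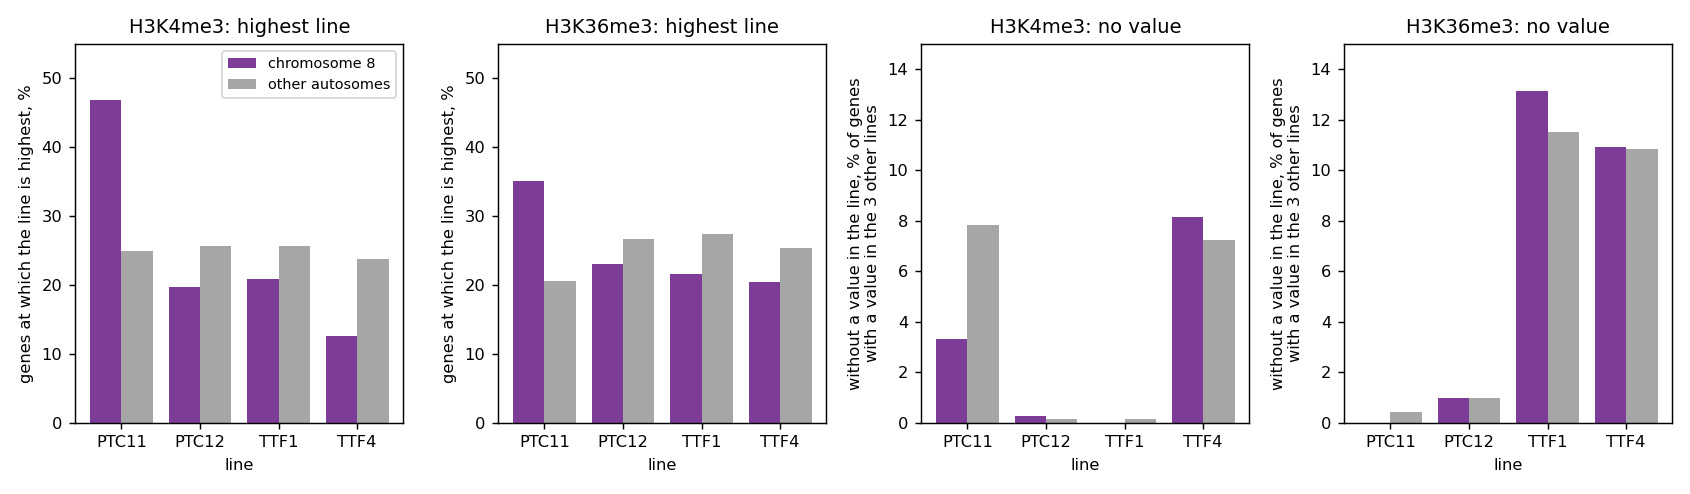
Percent of genes at which each line was the highest of the 4 (left pair of panels) and percent without a value in a line among genes with a value in the 3 other lines (right pair), for H3K4me3 and H3K36me3. Purple bars are chromosome 8 and grey bars the other autosomes; PTC11 was highest at 46.9% and 35.0% of chromosome 8 genes, and lacked an H3K4me3 value at 3.30% of them against 7.82% elsewhere.

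A gene without a retained peak has an empty entry, and the share of genes with an entry is the presence of the mark. H3K4me3 was present at 877 of 1975 chromosome 8 genes in PTC11 (44.4%, against 35.8% on the other autosomes). It was present at 52.4% against 47.4% in PTC12, 52.3% against 45.9% in TTF1 and 42.3% against 36.5% in TTF4. H3K36me3 was present at 79.4% against 69.9% in PTC11, 61.4% against 54.2% in PTC12, 61.5% against 55.9% in TTF1 and 54.8% against 48.0% in TTF4. Chromosome 8 thus had more genes with a mark than the other autosomes in every line, and the excess in percentage points was largest in PTC11, at 8.57 and 9.51. Both were the second largest of the 19 autosomes. As a ratio the H3K36me3 share was 1.14 times that of the other autosomes in PTC11 and also 1.14 times in TTF4. Among genes with a value in at least 1 line the H3K36me3 excess of PTC11 was 2.57 points. Presence was read from the same libraries as the levels and is not independent of them.

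An H3K4me3 value missing in 1 line alone was rarer on chromosome 8 in PTC11 than elsewhere. Of the 818 chromosome 8 genes with H3K4me3 in the 3 other lines, 27 had none in PTC11 (3.30%). On the other autosomes 7.82% had none, with single autosomes from 4.53% to 12.5%, so that chromosome 8 had the lowest share of the 19. The same share in TTF4 was 70 of 861 genes (8.13%, against 7.25% elsewhere), in PTC12 2 of 793 and in TTF1 0 of 791. For H3K36me3 0 of 920 chromosome 8 genes lacked a value in PTC11 alone, and the share elsewhere was 0.442%. TTF1 lacked H3K36me3 alone at 13.1% and TTF4 at 10.9% of such genes, close to their 11.5% and 10.9% on the other autosomes. Fgfr1, a fibroblast growth factor receptor gene, was one of the 27: its H3K4me3 was 4.07 RPKM in PTC12, 3.42 in TTF1 and 3.55 in TTF4, with no entry in PTC11. Fgfr1, like Zfp42, Klf2, Cdh1, Smad1 and Smarca5 named further on, was chosen after its values were seen.

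CpG methylation near starts was not raised on chromosome 8 in PTC11. Over 2426 genes with a value in all 4 lines the median fraction of PTC11 was 0.345, that of PTC12 0.511, that of TTF1 0.351 and that of TTF4 0.755. Taken as the difference from the median of the 4 lines and relative to the other autosomes, chromosome 8 stood at -0.0047 for PTC11, 0.0021 for PTC12, 0.0055 for TTF1 and 0.0046 for TTF4. These are places 14, 4, 3 and 8 of 19, inside the range of the other autosomes in each line (-0.0096 to 0.015 in PTC11). With the median of each line over the other autosomes subtracted first, PTC11 was at -0.0051, and the places were 18, 11, 2 and 6. In pairs PTC11 differed by -0.0094 from PTC12, -0.0043 from TTF1 and -0.010 from TTF4, places 16, 19 and 17. PTC12 differed from TTF1 by -0.0091, place 17, and the pairs of PTC12 and TTF1 with TTF4 were above 0. In PTC11 573 genes (23.6%) were at least 0.1 below the median of the 4 lines, beside 22.4% of all autosomal genes, and 122 (5.03%) were at least 0.1 above it, beside 7.91%. A value above 0.8 was found at 1.44% of chromosome 8 genes in PTC11, against 2.84% on the other autosomes. The same pair was 10.7% and 11.9% in PTC12, 4.41% and 5.05% in TTF1, and 42.6% and 44.5% in TTF4. A methylation value was present for 97.3% of listed genes on chromosome 8 in PTC11 and 98.1% elsewhere.

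When genes were split by their mean fraction, a split chosen after the data were seen, chromosome 8 in PTC11 had a lower relative value than all other autosomes at methylated promoters. No test was run on this pattern. Among genes with a mean of at least 0.5 over the 4 lines, 1294 on chromosome 8 and 26269 on the other autosomes, the median fraction in PTC11 was 0.502 against 0.529. The relative value was -0.022, the lowest of the 19 autosomes, where the others ran from -0.0089 to 0.011. With the median of each line over the other autosomes subtracted first it was -0.013, and the lowest other autosome was at -0.0097. On that scale it was 0 without PTC12, without TTF1 and without TTF4, where PTC11 is itself the median of 3 lines at many genes. The relative value was 0.0069 for PTC12, 0.0061 for TTF1 and 0.011 for TTF4. Compared in pairs, the difference of PTC11 was -0.022 from PTC12, -0.023 from TTF1 and -0.025 from TTF4. Chromosome 8 was the lowest of the 19 autosomes in the first 2 of these pairs and place 18 in the pair with TTF4, where another autosome was at -0.045. On chromosome 8 pairs of the other lines lay between -0.0060 and 0.0020. In 12 of 13 bins PTC11 was below 0 among these genes, against 5, 5 and 4 bins in PTC12, TTF1 and TTF4. With each line centred first these counts were 11 for PTC11 and 5, 6 and 4 for the others, and PTC11 was the lowest line in 6 bins. Between 0.2 and 0.5 (509 genes) the relative value in PTC11 was -0.0031, and below 0.2 (623 genes) it was -0.00048. With the split made on the 3 lines other than PTC11, 1407 genes were at least 0.5 and the relative value was -0.019, again the lowest of 19. On that split the 449 genes between 0.2 and 0.5 were at -0.0076, also the lowest of 19, with the others from -0.0052 to 0.0054. Below 0.2 (570 genes) it was 2.4e-05. The X chromosome was lower still in PTC11, at -0.032. Coverage per gene was unknown and its part in these differences was not tested.

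**Figure D4:**
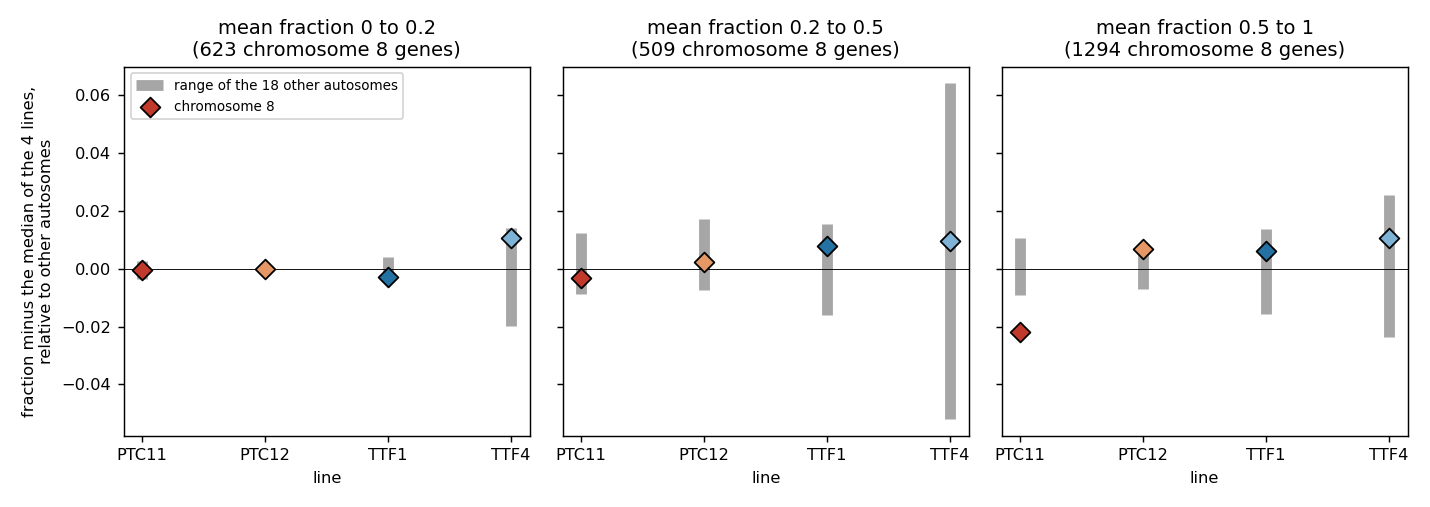
Relative CpG methylation (fraction minus the median of the 4 lines, minus that of the other autosomes) of chromosome 8 in each line, for genes with a mean fraction of 0 to 0.2, 0.2 to 0.5 and 0.5 to 1. Diamonds are chromosome 8 and grey bars the range of the 18 other autosomes; PTC11 falls below that range, at -0.022, in the group of 0.5 to 1.

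Genes of the pluripotent state and early embryo had PTC11 medians near those of the whole chromosome. Of 10 such genes with H3K4me3 in all lines, 6 were above the other autosomes' median ratio in PTC11, with a median relative value of 0.10. Over all autosomal genes 51.2% were above it, and on chromosome 8 as a whole 537 of 749 genes (71.7%) were. For H3K36me3 9 of 11 were above it, with a median of 0.071, where 50.8% of all autosomal genes and 575 of 896 chromosome 8 genes (64.2%) were above it. Zfp42, a zinc finger protein used as a marker of naive pluripotency, had an H3K4me3 level of 4.86 RPKM for PTC11, 2.54 for PTC12, 3.11 for TTF1 and no value for TTF4. Its H3K36me3 was 1.92, 1.24 and 1.32 RPKM in the first 3 lines and again absent in TTF4, the line in which the promoter shown above was methylated at 0.803. Zfp42 therefore had PTC11 on top and TTF4 without either mark. The H3K4me3 of Klf2, a Krüppel-like factor of the pluripotency network, was 3.81, 4.83, 4.27 and 3.64 RPKM, a relative value of 0.20 in PTC11. Cdh1, the E-cadherin gene, had 4.54, 5.26, 6.26 and 4.11 RPKM and Smad1, a transducer of BMP signals, had 4.55, 5.27, 5.93 and 3.55 RPKM, each at a relative value of 0.17. Sall1 and Zfp423, zinc finger genes, were at -0.0055 and 0.090, and Gab1, an adaptor in growth factor signalling, was at -0.24.

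Among chromatin and transcription regulators 15 of 21 were above the other autosomes' median in PTC11 for H3K4me3 (median 0.11) and 13 of 22 for H3K36me3 (median 0.088). Of all chromosome 8 genes 71.7% and 64.2% were above it for these marks, and of all autosomal genes 51.2% and 50.8%. Ctcf, with the highest mean H3K4me3 of this list, had 4.91, 7.81, 7.89 and 5.07 RPKM in PTC11, PTC12, TTF1 and TTF4, a relative value of -0.080 in PTC11. Its H3K36me3 was 2.22, 5.42, 1.26 and 4.71 RPKM, at 0.048. The bromodomain gene Brd7 was at -0.048 for H3K4me3 and -0.21 for H3K36me3, and Ing1, a reader of H3K4me3, was at 0.0034 and 0.63. Smarca5, the ATPase of ISWI remodelling complexes, was at 0.16 and 0.15. Members of 1 list thus lay on both sides of 0, and Ctcf did not follow the median of its chromosome.

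Genes of replication, repair and the cell cycle had 14 of 20 members above for H3K4me3 (median 0.083) and 9 of 14 for H3K36me3 (median 0.060). The shares above were 71.7% and 64.2% over all chromosome 8 genes, beside 51.2% and 50.8% over all autosomal genes. Mcm5, a subunit of the replicative helicase, had 4.47, 7.42, 7.27 and 4.69 RPKM of H3K4me3, at -0.11. Cenpn, a kinetochore gene, was at 0.055 and Rnaseh2a, a subunit of ribonuclease H2, at -0.062. Genes of ribosome, splicing, proteasome and mitochondria had the largest share above for H3K4me3 among lists with at least 9 genes in all lines, 25 of 27 (median 0.15), with PTC11 the highest line at 19, and 11 of 19 for H3K36me3 (median 0.044). PTC11 was the highest line for H3K4me3 at 46.9% of all chromosome 8 genes and 26.2% of all autosomal genes. The RNA helicase gene Ddx49 had 5.82, 5.79, 9.40 and 4.83 RPKM of H3K4me3, at 0.28. The phenylalanyl-tRNA synthetase gene Farsa, another of its most marked members, was below 0, at -0.043.

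Lineage transcription factors had 15 of 18 above for H3K4me3 (median 0.14) and 13 of 20 for H3K36me3 (median 0.11). Beside the counts of these lists, 71.7% and 64.2% of all chromosome 8 genes and 51.2% and 50.8% of all autosomal genes were above. PTC11 had the highest H3K4me3 at 46.9% of chromosome 8 genes and 26.2% of autosomal genes. Klf1, an erythroid factor, had 3.76, 3.81, 8.24 and 3.13 RPKM of H3K4me3, at 0.27, while Irf2 and Nr2f6 were at -0.12 and -0.14. The lists named for kidney and for fibroblasts and matrix had PTC11 medians on opposite sides of 0. How far their members are specific to those tissues was not tested. Of 9 kidney genes with H3K4me3 in all lines 1 was above the other autosomes' median in PTC11 and 0 had PTC11 highest, with a median of -0.082, and 6 of 13 were above for H3K36me3 (median -0.042). The glutathione reductase gene Gsr had 4.55, 6.74, 8.75 and 3.62 RPKM of H3K4me3, at -0.0038, and its promoter methylation was 0.105, 0.174, 0.192 and 0.787. The transporter genes Slc7a6 and Slc9a5 were at -0.17 and -0.096. Of fibroblast and matrix genes 6 of 9 were above for H3K4me3 (median 0.17) and 9 of 14 for H3K36me3 (median 0.080). Col4a1 and Col4a2, the collagen IV genes that share a promoter, had identical H3K4me3 of 3.71, 6.01, 5.90 and 3.67 RPKM, at -0.056. A single promoter is thus counted more than once. The kidney list and the fibroblast and matrix list both had a PTC11 H3K4me3 median of 3.71 RPKM over 9 genes, the value of this pair. The lists are therefore not independent sets. The lymphatic growth factor gene Vegfc was at 0.028.

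**Figure D5:**
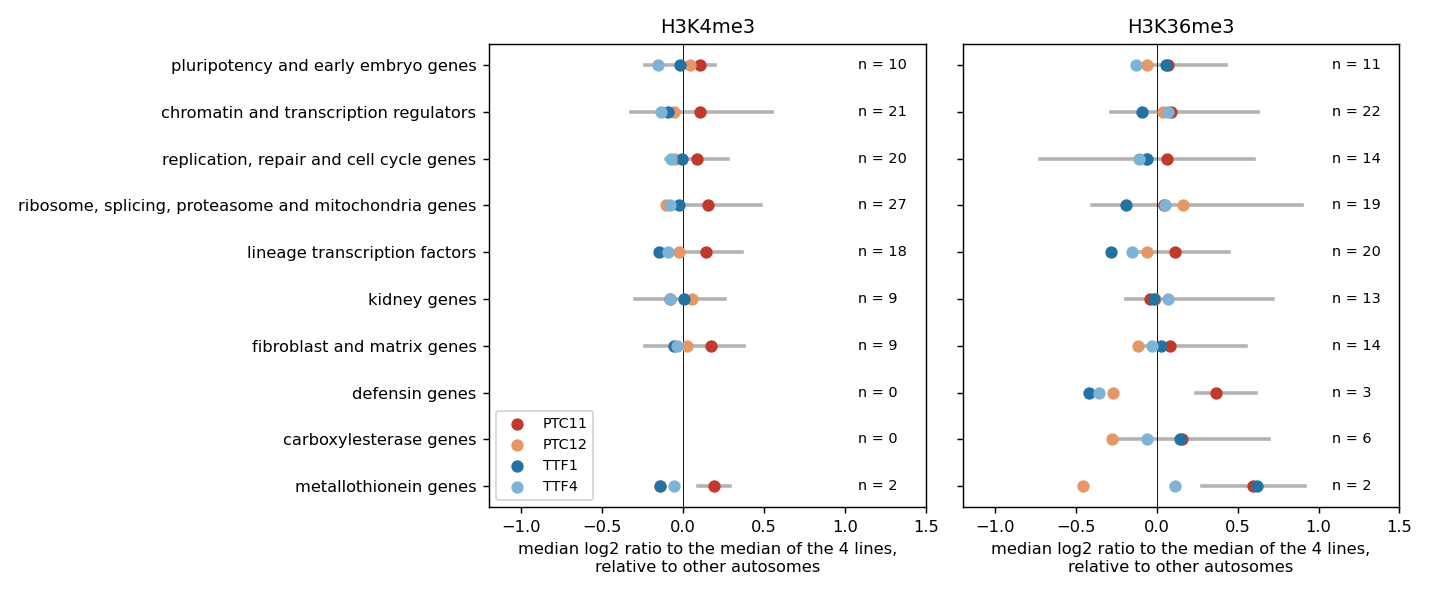
Median relative value (log2 ratio to the median of the 4 lines, minus that of the other autosomes) of each gene list on chromosome 8 in each line, for H3K4me3 and H3K36me3. Points are lines, grey bars the range over members in PTC11, and n the members with a value in all 4 lines; the kidney genes are the list with a PTC11 median below 0, at -0.082 and -0.042.

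The tissue-restricted clusters of the chromosome were nearly free of H3K4me3 and methylated. Of 53 defensin genes none had H3K4me3 in any line, and of 20 carboxylesterase genes none had it in PTC11 or PTC12 and 1 had it in TTF1 and in TTF4. H3K36me3 was present in PTC11 at 13 defensin and 17 carboxylesterase genes, against 4 to 9 and 11 to 12 in the other lines. PTC11 had H3K36me3 at more genes everywhere, at 69.9% on the other autosomes against 48.0% to 55.9% in the other lines. Over 50 defensin genes PTC11 had a median methylation of 0.476, PTC12 of 0.667, TTF1 of 0.476 and TTF4 of 0.795. For 19 carboxylesterase genes it was 0.475, 0.707, 0.486 and 0.737. By contrast the medians for pluripotency genes were 0.0450, 0.0530, 0.0682 and 0.118, those for chromatin regulators 0.0467, 0.0656, 0.0344 and 0.192, and those for kidney genes 0.160, 0.370, 0.178 and 0.714. In defensins, carboxylesterases and kidney genes PTC11 and TTF1 had the lower and TTF4 the highest medians, as over all genes of the other autosomes, where the medians were 0.381, 0.534, 0.370 and 0.769. Defb38 had 3.76, 3.63, 0.327 and 5.81 RPKM of H3K36me3, Defb10 had 2.01, 4.62, 1.60 and 3.26, and Defb39 had 2.42, 3.83, 1.04 and 3.31. The defensin genes include close paralogs among which short reads can be split, so values of single members are uncertain. Metallothionein genes, which encode metal-binding proteins, had H3K4me3. Mt1 (chr8:94179089-94180325, plus strand) had 4.43, 4.37, 4.79 and 3.32 RPKM, at 0.29, and 1.93, 1.23, 0.982 and 4.28 RPKM of H3K36me3, at 0.92. Mt2 was at 0.094 and 0.28.

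Within listed genes the methylation of PTC11 was farthest below the median of the 4 lines at defensins. At Defb6 PTC11 had 0.323, PTC12 had 1, TTF1 had 0.796 and TTF4 had 1. Defb2 had 0.222, 0.722, 0.632 and 0.879, and Defb11 had 0.106, 0.759, 0.367 and 0.750. PTC11 was the lowest line at each of these, as it was at Defa-ps17 (0) and Defa-ps16 (0.0445). Farthest above stood Defa-ps9 (0.800 in PTC11), Defa33 (1), Defb8 (0.436), Defa40 (0.756) and Agt, the angiotensinogen gene, with 0.522, 0.371, 0.369 and 0.887. TTF4 was above PTC11 at Agt and Defb8, and below it at Defa-ps9, Defa33 and Defa40. Fractions of 0 and 1 occurred among them, and the number of CpG calls behind each was unknown.

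The genes with the largest ratios were named by rank among the 531 that had an Ensembl identifier and a mean of at least 1 RPKM in both marks. The H3K4me3 of Clgn (chr8:83389867-83428552, plus strand), the calmegin chaperone gene, was 4.40 RPKM for PTC11, 2.76 for PTC12, 4.29 for TTF1 and 2.65 for TTF4, a relative value of 0.63 in PTC11. Palm3, a paralemmin gene whose promoter is shown above, had 3.76, 2.99, 2.90 and 3.22 RPKM, at 0.56. Mbtps1, the site-1 protease gene, had 6.17, 5.18, 4.50 and 5.05 RPKM, at 0.55. At Clgn, Palm3 and Mbtps1 PTC11 was the highest line even in RPKM as deposited. The same was true of the phosphatase gene Inpp4b (4.57, 4.30, 3.18 and 3.44 RPKM) and of Cmtm3 (4.36, 3.31, 4.09 and 3.17 RPKM). Lowest in PTC11 were AC240744.1 (0.648, 2.42, 3.03 and 1.33 RPKM, at -1.19), Mtus1 (-0.50), Arhgef18 (-0.42), Hmgxb4 (-0.42) and Acsl1 (-0.41), the last 4 with a PTC11 value between 3.08 and 3.88 RPKM. For Arhgef18 methylation was also lowest in PTC11, at 0.145 against 0.532, 0.590 and 0.799.

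For H3K36me3 the largest ratios stood at Cmtr2 (listed as Ftsjd1), a cap methyltransferase gene, with 2.63, 4.11, 1.37 and 1.44 RPKM and a relative value of 1.02, followed by Golga7 (0.96), Ist1 (0.96), the immediate early gene Ier2 (0.94) and Mt1 (0.92). At Cmtr2, Golga7, Ist1 and Ier2 the value in TTF4 was below that in PTC11, whereas over the chromosome as a whole the TTF4 median was above it. The smallest stood at Polb, the DNA polymerase beta gene, with 1.33, 5.61, 1.95 and 5.77 RPKM (-0.72), at Smim19 (listed as AI316807, -0.61), AC155814.1 (-0.59), the lysosomal gene Lamp1 (-0.55) and Tsnax (-0.55). Polb and Smim19 lie in bin 3, next to the bin in which PTC11 H3K36me3 was at -0.0020.

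The array of 5S ribosomal RNA genes near the distal end had to be read apart from the rest. It holds 51 copies on the minus strand, a median of 1697 bp apart, of the 59 genes named 5S_rRNA on chromosome 8. Of the 51 copies 32 are identical, so short reads cannot be assigned to single copies and their values are uncertain. H3K4me3 was listed at 47, 51, 51 and 46 copies in PTC11, PTC12, TTF1 and TTF4, with 43, 23, 34 and 42 of these at 0 and a highest value of 0.606, 0.301, 0.260 and 0.875 RPKM. H3K36me3 did not pass 0.111 RPKM in any line. The copies entered the count of genes with a value, and without genes named 5S_rRNA the excess of H3K4me3 presence on chromosome 8 in PTC11 was 7.37 percentage points in place of 8.57.

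H3K27me3, a mark of repressed genes, was read in 4 libraries, 2 of which the labels assign to PTC11. The study describes PTC11 and PTC12 for its histone marks, so the line behind the second of these is uncertain, and lines were not compared. On chromosome 8 it had entries at 39 genes and 54 genes of the libraries labelled PTC11, at 15 in TTF1 and at 0 in TTF4. Of these entries 33, 35 and 11 were 0 RPKM in the first 3 libraries, all in the 5S array. Entries stood at 1.97%, 2.73%, 0.759% and 0% of chromosome 8 genes, beside 0.0774%, 0.232%, 0.0955% and 0.0284% on the other autosomes. Outside the 5S array 2, 7, 0 and 0 entries were left. In the second library labelled PTC11 these were Rasd2 (2.25 RPKM), Gm5607 (1.87), XLOC_059613 (1.85), AC119275.1 (2.03), Plcg2 (1.32) and the forkhead gene Foxl1 (1.80), which the table lists under 2 identifiers. In the first they were Insl3 (1.74) and RP23-155H5.2 (2.59). No gene outside the array had a value in both libraries labelled PTC11.

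For CpG methylation and H3K36me3 no chromosome 8 gene passed the test of TTF against PTC lines, with 2 lines of each origin. The median methylation of chromosome 8 minus that of the other autosomes was -0.036 in PTC11 and -0.023 in PTC12, a mean of -0.029 ± 0.0095 (SD, n = 2), and -0.019 in TTF1 and -0.014 in TTF4, a mean of -0.016 ± 0.0037 (SD, n = 2). The difference of 0.013 gave p = 0.333 in a two-sided exact permutation test over lines, and no smaller p can be reached with 2 lines of each origin. On other scales the origins overlapped. Minus the mean of each line, PTC11 was at -0.022, PTC12 at 0.034, TTF1 at -0.022 and TTF4 at 0.11. With medians as deposited the difference was 0.13, with p = 0.667 in the same permutation test. Gene by gene, limma with Benjamini-Hochberg adjustment called 0 of 2426 chromosome 8 genes for methylation, beside 0.00395% of all genes. At an unadjusted p under 0.05 there were 96 (3.96%, against 4.74% of all genes), and the smallest limma adjusted p was 0.295. Without TTF1 the count was 31 and without TTF4 it was 6, in fits where the lone TTF line is assumed to vary like the PTC lines. For H3K36me3 limma called 0 of 920 genes, beside 0.112% of all genes, and 1 had an unadjusted p under 0.05.

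For H3K4me3 limma called 8 of 791 chromosome 8 genes (1.01%), 4 higher and 4 lower in TTF, beside 0.481% of all genes. This contrast holds the PTC11 values that chose the chromosome. Of the 8, 6 were copies of 5S_rRNA, with differences between -0.18 and 0.12 on the log2(RPKM + 1) scale. Another was XLOC_060017, listed at 0 RPKM in PTC11, PTC12 and TTF4 and at 0.317 RPKM in TTF1. The last was 2610005L07Rik, with 0.433 and 1.57 RPKM in PTC11 and PTC12 and 2.94 and 1.04 RPKM in TTF1 and TTF4, a difference of 0.56 ± 0.11 (SE) with a limma adjusted p of 0.000167. In 2610005L07Rik the origins overlapped, since PTC12 was above TTF4, and in XLOC_060017 a single line differed from 0. With genes of a mean of at least 1 RPKM alone, or without the variance trend, the count was 0. It was 20 with a pseudocount of 0.1, 2 without genes named 5S_rRNA, 5 without PTC11 and 5 without TTF1.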

How the data were processed

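Histone marks were measured by chromatin immunoprecipitation and sequencing and CpG methylation by nanopore sequencing, in 4 lines, in 16 libraries over all assays. The authors trimmed reads with Trim Galore, aligned them with Bowtie2 2.1.0 to mm10, called peaks per library against input with MACS2 2.0.10 (broad for H3K36me3 and H3K27me3) and counted reads with bedtools 2.17.0, as the study's methods and the submitters' processing notes give it. The deposited RPKM values are those of a mark minus its input, averaged over the peaks of a gene, which lie between 2 kb before and 3 kb after its start for H3K4me3 and H3K27me3 and in its body for H3K36me3, and an entry is empty where no peak was kept. Because input was subtracted, whole reads could not be recovered, and the depth of each library was unknown beyond the nominal read number in the methods. The deposited methylation fractions were called by the authors with Guppy, minimap2 2.17-r941 and Nanopolish and averaged over windows within 1 kb of a start. They are not scaled between lines and their coverage was unknown.

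Genes above 0 in all 4 lines entered the log2 ratio to the median of the 4 lines, or for methylation all genes with a value entered the difference from it. Medians over chromosome 8 were set against the 18 other autosomes (Python 3.11.15, pandas 2.3.3, scipy 1.17.1). TTF and PTC lines were compared across all genes with limma 3.58.1 in R 4.3.3, with a variance trend and Benjamini-Hochberg adjustment at 0.05. The fits used log2(RPKM + 1), where a fold change understates that of low genes, or fractions minus the mean of each line. The median methylation was compared by a two-sided exact permutation test. The relative-value and limma steps were tested on simulated data. The simulated lines differed less in level than those of H3K36me3, and the simulated limma effects were large. Sequences came from the RefSeq tables for GRCm38.p6 and the mm10 coordinates of the files.

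The named genes were the 3 members of each list with the highest mean H3K4me3 (H3K36me3 for lists with fewer than 3 marked genes), the 5 highest and 5 lowest PTC11 ratios per mark, the 5 highest and 5 lowest PTC11 methylation values of listed genes after centring, genes called by limma, genes with H3K27me3, and the first and last gene. Others are named as chosen after their values were seen. A single gene that the rule names is not reported here. The members and lists were chosen with earlier results of these data known. Of the listed symbols Slc22a31 and Loxl2 had no match on the chromosome. Other pseudocounts, level filters, scalings, references and sets of lines were tried as alternatives.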

Additional observations from a re-analysis of the deposited data

How the results depend on the processing

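For H3K4me3 in PTC11 12 other settings gave relative values of 0.087 to 0.14, and leaving out 1 other line gave 0.0032 to 0.13, all above 0. For H3K36me3 the value was 0.046 on log2(RPKM + 1), 0.11 after quantile normalization, 0.15 with the 3 other lines as reference (chosen after seeing the data), and 0 to 0.19 with 1 line left out. A value of 0 arises where PTC11 is itself the median of 3 lines at most genes. For methylation it was -0.022 and -0.019 among genes of a mean fraction of at least 0.5 over the 4 or the 3 other lines (both chosen after seeing the data), -0.014 to 0 with 1 line left out, and at most 0 in all 12 alternatives. The excess of genes with H3K36me3 in PTC11 was 2.57 percentage points among genes with a value in at least 1 line and 9.07 to 9.60 otherwise. The share of chromosome 8 genes that had a methylation value in PTC11, minus that share on the other autosomes, was -0.733 points. This difference in presence became 0.120 among genes with a value in at least 1 line. Without genes named 5S_rRNA it was 0.863 (chosen after seeing the data). The H3K4me3 count of TTF against PTC, 8 genes, was 20 with a pseudocount of 0.1, 0 without the variance trend, 0 at a mean of at least 1 RPKM, 2 without genes named 5S_rRNA, and 5 to 9 with 1 line left out. The H3K36me3 count was 0 in all 8 alternatives. The methylation count was 0 to 31 with 1 line left out and 0 in the 3 other alternatives. The cause was not tested. No paired analysis was possible because the PTC lines (11 and 12) and the TTF lines (1 and 4) share no number. Single libraries per line, unknown depth of each library and values kept only where a peak was called limit every comparison.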

Other observations

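On the X chromosome, which stands outside the autosomes used as reference, PTC11 had a relative value of 0.25 for H3K4me3, 0.13 for H3K36me3 and -0.019 for CpG methylation. An H3K4me3 value was missing in PTC11 at 25.2% of X genes that had one in the 3 other lines, against 3.30% on chromosome 8.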
